A study of Drosophila melanogaster with 3 samples.

Results

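The genes described here are 10 core genes of the Notch pathway in Drosophila melanogaster, chosen by name from the 13945 protein-coding genes of the dm6 annotation. They are the receptor gene N, the ligand genes Dl and Ser, 4 genes for proteins that process or modify receptor and ligand (fng, neur, kuz and Psn), and 3 genes for nuclear proteins of the pathway (Su(H), H and mam). The annotation lists Dl under the symbol Delta. The study mapped the protein of CG12155 by chromatin immunoprecipitation and sequencing (ChIP-seq) in embryos of a fly line that carries CG12155 fused at its C terminus to eGFP, with an antibody against GFP. All samples form 1 group, of the strain CG12155-GFP, with 3 biological replicates of embryos of both sexes aged 0 to 24 hours. There is no second condition, and the control experiment that the labels name was not analysed here, so enrichment that does not need the tagged protein was not tested. The labels do not say what drives the transgene or whether the untagged protein is still made. Whole embryos of mixed ages were used, so a peak cannot be traced to a tissue or a stage.

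Notch is a receptor that spans the cell membrane and is activated by the ligands Delta and Serrate on neighbouring cells. After ligand binding it is cut first by an ADAM protease and then by gamma-secretase, and the freed intracellular part enters the nucleus, where it joins the DNA-binding protein Su(H) and the co-activator Mastermind to switch target genes on. Without this signal Su(H) is held with Hairless in a complex that represses the same targets. In the fly embryo the pathway is known above all for lateral inhibition, in which a cell that becomes a neural precursor keeps its neighbours from doing so.

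For each gene, a peak was assigned when its summit lay within 500 bp of a transcription start site (TSS) of the gene (called a promoter peak), elsewhere in its exons or introns, or within 5 kb of its ends. The optimal set of the authors, which passed their test of reproducibility, holds 5202 peaks on dm6. These are the 5202 strongest of 30000 regions in the relaxed list of the pooled replicates. That list, like the relaxed lists of replicates 1, 2 and 3 with 30000, 29643 and 30000 regions, holds background beside peaks. Signal is the authors' own value on a scale that is not stated, so peaks are given by rank within a list, where rank 1 is the strongest. A replicate supports a peak when 1 of its 5202 strongest regions overlaps it by 1 bp or more. Read counts were not among the files used, and depth is unknown. Near CG12155 itself, optimal peaks ranked 240, 826 and 1483, each supported by 3 replicates.

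In all, 24 optimal peaks were assigned to 6 of the 10 genes: 11 to mam, 5 to N, 5 to neur, and 1 each to kuz, Psn and Su(H). Dl, Ser, fng and H had none. Of the 24 summits, 13 lay in introns, 7 at promoters, 4 in the flanks and 0 in exons. By role, the receptor gene had 5 peaks, the 2 ligand genes 0, the 4 processing genes 7 and the 3 nuclear genes 12. The nuclear count was carried by mam, since Su(H) had 1 peak and H had 0. Counts by role and by place were not adjusted for gene length or set against all optimal peaks. They include 7 peaks with a TSS of another protein-coding gene within 500 bp.

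**Figure D1:**
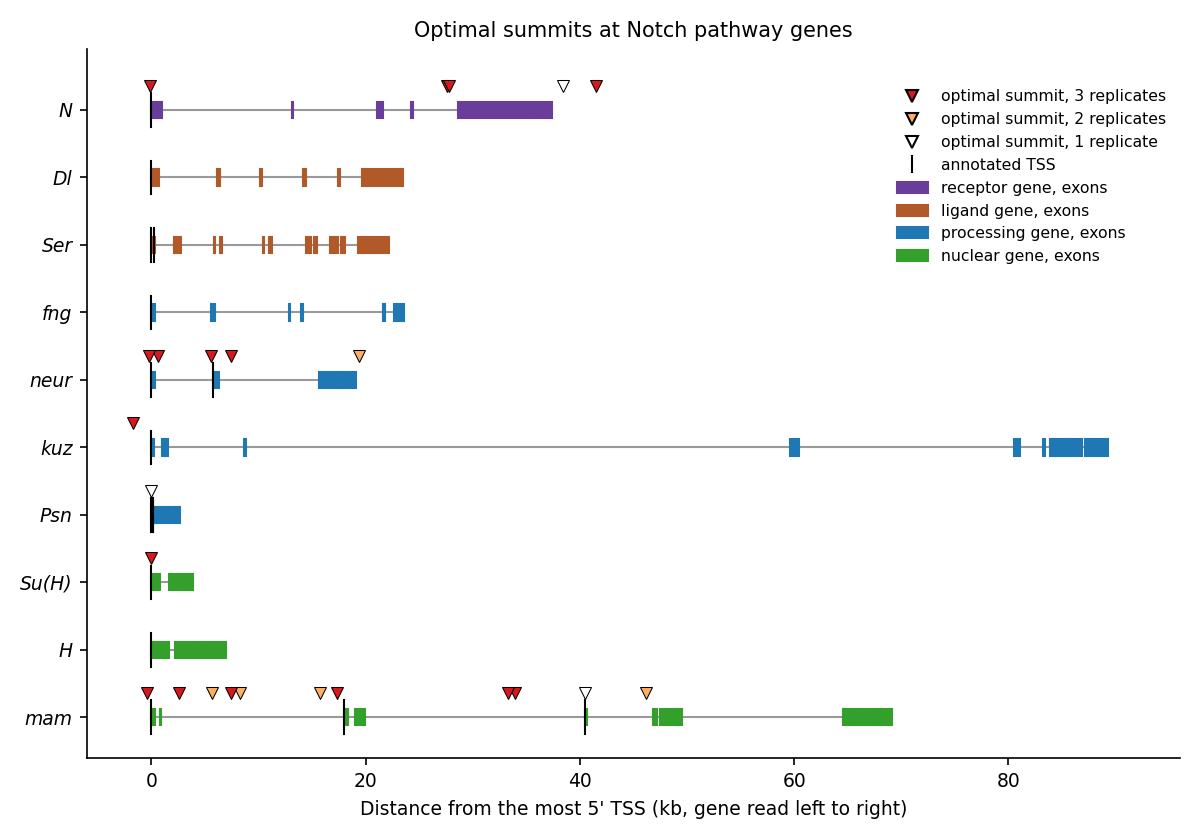
Optimal summits at the 10 Notch pathway genes, with the distance from the most 5' TSS in kb on the horizontal axis and every gene read from left to right. Boxes are annotated exons coloured by role, upright strokes are TSSs, and triangles are summits filled by the number of supporting replicates; mam carries 11 summits, N and neur 5 each, and Dl, Ser, fng and H none.

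The sequences under 5 of these summits are shown as examples from N, neur and Su(H), where these summits lie over 500 bp from any other protein-coding gene's start. They are the strongest intronic peaks of N and neur outside any other gene and the promoter peaks of N, Su(H) and the inner TSS of neur. Each is at most 300 bp about the summit, cut back where an annotated exon begins, taken from RefSeq's Release 6 assembly (dm6 coordinates) on the plus strand, 5′ to 3′. The N intron stretch is X:3162340-3162639 and the N promoter stretch X:3134592-3134869. The neur stretches, in a gene on the minus strand, are 3R:9031868-9032167 in the intron and 3R:9033796-9034095 at the inner promoter. The Su(H) stretch is 2L:15039271-15039487. Capitals mark matches, on either strand, to the motifs named after the sequences other than CANNTG, so that CGATA on the minus strand reads TATCG.
N intron: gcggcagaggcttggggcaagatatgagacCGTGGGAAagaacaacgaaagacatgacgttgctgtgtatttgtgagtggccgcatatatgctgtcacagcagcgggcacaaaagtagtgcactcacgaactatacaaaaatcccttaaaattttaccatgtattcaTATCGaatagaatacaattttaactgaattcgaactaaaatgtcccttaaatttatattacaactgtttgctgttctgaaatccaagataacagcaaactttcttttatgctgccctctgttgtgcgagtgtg
N promoter: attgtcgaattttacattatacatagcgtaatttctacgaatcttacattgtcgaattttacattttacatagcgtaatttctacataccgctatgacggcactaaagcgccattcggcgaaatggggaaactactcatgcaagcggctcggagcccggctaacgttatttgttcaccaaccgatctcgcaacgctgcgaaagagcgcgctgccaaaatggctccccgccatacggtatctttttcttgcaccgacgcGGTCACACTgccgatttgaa
neur intron: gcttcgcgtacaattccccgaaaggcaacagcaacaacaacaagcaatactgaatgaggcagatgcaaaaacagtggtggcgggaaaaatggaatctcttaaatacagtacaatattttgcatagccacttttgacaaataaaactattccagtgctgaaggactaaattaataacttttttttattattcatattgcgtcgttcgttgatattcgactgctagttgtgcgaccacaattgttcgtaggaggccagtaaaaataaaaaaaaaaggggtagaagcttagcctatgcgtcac
neur inner promoter: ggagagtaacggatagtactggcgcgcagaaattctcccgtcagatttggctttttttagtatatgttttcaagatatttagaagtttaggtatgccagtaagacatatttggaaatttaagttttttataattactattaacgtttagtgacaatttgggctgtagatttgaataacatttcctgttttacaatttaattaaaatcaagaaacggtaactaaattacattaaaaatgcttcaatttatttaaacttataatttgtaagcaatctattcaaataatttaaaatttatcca
Su(H) promoter: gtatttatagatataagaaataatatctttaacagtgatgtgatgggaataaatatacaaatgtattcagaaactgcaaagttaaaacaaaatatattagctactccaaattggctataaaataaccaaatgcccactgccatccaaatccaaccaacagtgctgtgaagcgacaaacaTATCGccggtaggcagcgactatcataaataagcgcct

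Motifs were searched on both strands in the 300 bp centred on each summit, and the same letters were counted in 300 bp windows of all 5202 optimal summits and of 19607 promoters of protein-coding genes (250 bp before to 50 bp after the TSS). A match is a description of the letters and not a binding site. The Su(H) site, taken as CGTGGGAA, CGTGAGAA, TGTGGGAA or TGTGAGAA, was found in the window of 1 of the 24 summits, the strongest of N, which holds CGTGGGAA. That match lies before the start of the called peak, X:3162402-3162594, and not within it. The Su(H) site was found at 3.17% of all optimal summits and at 3.22% of promoters. The core promoter element Motif 1, GGTCACACT, stood at 3 of the 24 summits, the N promoter among them, against 3.98% of optimal summits and 5.23% of promoters. The others were the neur promoter peak near hyx and the peak at tgo, both described with neur.

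The letters CGATA were found at 12 of the 24 summits, against 42.6% of optimal summits and 45.7% of promoters. They occur within TATCGATA, the DNA replication-related element, which was found at 1 of the 24, the Su(H) promoter, where the match lies outside the stretch printed, against 7.3% of optimal summits and 7.98% of promoters. GAGAGA, a match to GAGA factor sites, was at 3 of 24 (17.2% and 14.6%), CAGCTG at 3 of 24 (15.6% and 17.9%), and the wider E-box CANNTG, which includes CAGCTG, at 17 of 24 (74.5% and 77.8%). The counts are small, and no difference from the other summits was tested. The GC content of the 24 windows ran from 26.7% to 58.3% with a median of 36.3%, and the median of all optimal windows was 37%.

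Promoter peaks were found at N, neur, Psn, Su(H) and mam, which is 5 of the 10 genes, against 26.2% of all protein-coding genes. With only the strongest 50% of the optimal peaks the order turned, with 1 of the 10 genes, neur, against 15.4% of all genes. Among the 5202 strongest regions of replicates 1, 2 and 3 taken alone, promoter summits stood at 6, 5 and 5 of the 10 genes (mean 5.33 ± 0.577, SD, n = 3), against 26.5%, 25.1% and 25.4% of all genes. N, neur, Su(H) and mam were among them in each replicate, Psn and kuz in replicate 1, kuz again in replicate 2 and fng in replicate 3. With 10 genes chosen by name these counts are a description, and no test was made.

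Any assigned optimal peak was present at 6 of the 10 genes, against 54.3% of all genes, which is close to the background. An intronic peak was present at 3 of the 10 genes, against 6.96% of all genes. The 10 genes are long, with a median length of 22832.5 bp against 2166 bp over all protein-coding genes, and long genes hold more summits. Of the 6 members of 20 kb or more, 2 had an intronic peak, against 42.3% of all genes of that length. Of the same 6, 3 had any assigned peak and 2 a promoter peak, against 66.7% and 31.3% of such genes. Among genes of 20 kb or more, none of these shares of the 6 members was much above the background. The 6 leave out neur, which at 19.1 kb falls just below this length and had 2 promoter and 2 intronic peaks.

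**Figure D2:**
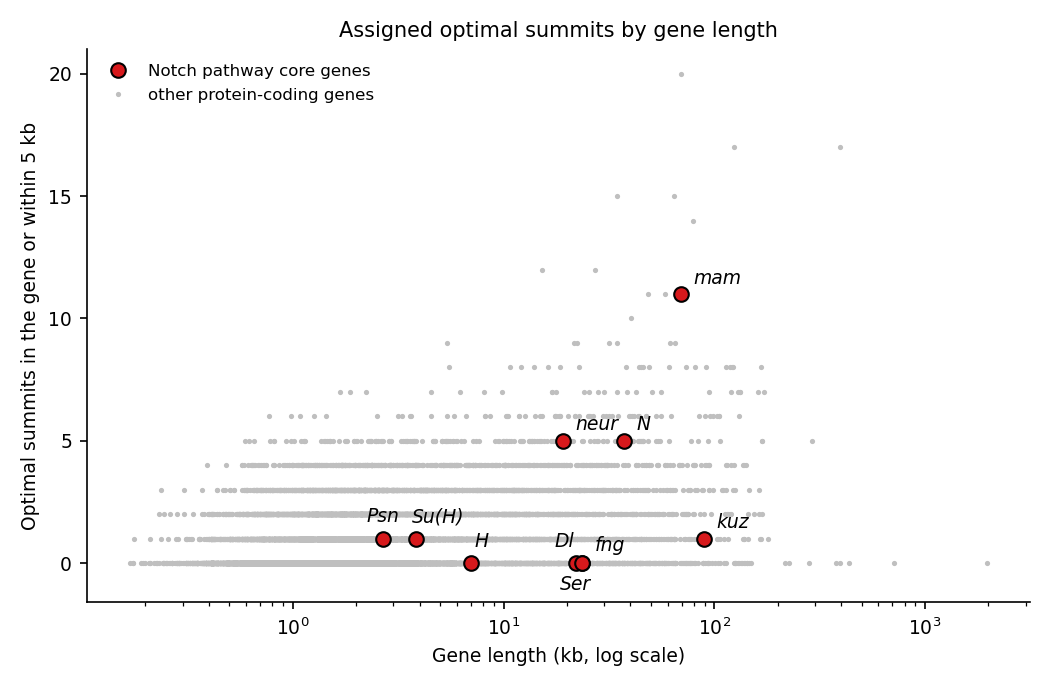
Number of optimal summits in the gene or within 5 kb of it (vertical axis) against gene length in kb on a log scale (horizontal axis), with the Notch pathway core genes as red points and the other protein-coding genes as grey points. At 11 summits mam lies near the top for its length, while kuz, the longest of the 10, has 1.

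The receptor gene N (FBgn0004647, X:3134870-3172221, plus strand) spans 37.4 kb with 1 annotated TSS. Its strongest peak, at X:3162402-3162594 in intron 5 of 8, ranked 888 in the pooled list and 1115, 830 and 881 in replicates 1, 2 and 3. Its summit lay 27620 bp downstream of the TSS, with the nearest start of another protein-coding gene, CG18508, 10650 bp away. All 3 replicates placed this peak high, and their summits lay 14, 31 and 45 bp from the pooled one.

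A second intronic peak of N, at X:3162475-3162904 with its summit 200 bp from the first, ranked 3631, and the intervals overlap by 120 bp. The replicate regions that overlap it best are those of the stronger neighbour. Replicate summits within 100 bp of it ranked 9861, 8707 and 4740, so it stood apart among the strongest regions of replicate 3 only.

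The promoter peak of N (X:3134527-3134956) peaked 128 bp before the TSS and ranked 3512 in the pool and 2369, 4402 and 2514 in the replicates. Each replicate had a strong region here, but their summits lay more than 100 bp from the pooled one, on either side of it. No other protein-coding TSS lay within 500 bp. The remaining peaks of N were at other genes' starts: 1 at X:3176186-3176615 (rank 2930; 2356, 4779 and 3454 in the replicates) had its summit 39 bp from the start of dnc, which encodes a cAMP phosphodiesterase, and 1 at X:3173093-3173522 (rank 5034) lay 168 bp from the start of CG18508.

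The ligand genes had no optimal peak in the pool, and neither had a region among the 5202 strongest of any replicate. For Dl (FBgn0000463, 3R:19302731-19326217, minus strand), the strongest relaxed region lay at the promoter, 160 bp upstream of the TSS, and ranked 8507 in the pool. In replicates 1, 2 and 3, matching regions ranked 5335, 16053 and 27308, a spread that covers most of the list. Ser (FBgn0004197, 3R:27172090-27194267, minus strand) had only 4 relaxed regions. The strongest, in an intron, ranked 11036 in the pool and 12854, 8918 and 26977 in the replicates, and the promoter region ranked 18420. Both ligand genes are over 20 kb long, a length at which 66.7% of genes had an assigned optimal peak.

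Among the processing genes neur stood out. It encodes an E3 ubiquitin ligase that drives endocytosis of the ligands, and it is a gene of 19.1 kb (FBgn0002932, 3R:9020348-9039471, minus strand) with 2 annotated TSSs. Its strongest peak, at 3R:9038736-9038981 in the first intron, ranked 658 in the pool and 511, 526 and 1519 in the replicates. The summit lay 622 bp downstream of the outer neur TSS and 89 bp from the nearest TSS of hyx, a gene read in the opposite direction that encodes a subunit of the Paf1 complex. The peak can therefore be counted for either gene.

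The outer neur promoter carried a peak at 3R:9039521-9039950 with its summit 265 bp upstream. It ranked 1917 in the pool, with 1005, 2638 and 4445 in the replicates, and its summit lay 30 bp from another TSS of hyx. The inner neur promoter and the intron after it lay clear of other genes. The inner promoter peak, at 3R:9033731-9034160 with its summit 215 bp upstream, ranked 1628 in the pool and 1428, 1213 and 2557 in the replicates. The intronic peak at 3R:9031940-9032111, 1713 bp downstream of the inner TSS, ranked 1116 in the pool and 1751, 931 and 859 in the replicates. These 4 peaks were supported by all 3 replicates and lay in the strongest 50% of the optimal set. The last peak of neur, past the 3' end, ranked 5078 and lay 30 bp from the start of tgo, which encodes the fly counterpart of ARNT.

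The other processing genes had little. Psn encodes presenilin, the catalytic subunit of gamma-secretase, in a gene of 2.7 kb (FBgn0284421, 3L:20432468-20435156, plus strand). Its promoter peak ranked 4367 in the pool and 3621, 5739 and 7812 in the replicates, so only replicate 1 supported it. The summit lay 57 bp from the start of Las, the lipoate synthase gene, which is read in the opposite direction.

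The longest of the 10 genes, kuz (FBgn0259984, 2L:13550139-13639411, plus strand), encodes the ADAM protease that cuts Notch. It spans 89.3 kb and had no optimal peak in the gene. Its 1 assigned peak, at 2L:13548177-13548606, lay 1747 bp upstream of the TSS inside the neighbouring gene B4, and ranked 3857 in the pool and 4497, 4659 and 2718 in the replicates. Of 110 protein-coding genes at least as long as kuz, kuz included, 50 had at most 1 assigned optimal peak, and the median was 2. The pooled list holds 3 weak promoter regions of kuz, the strongest at rank 11047, although the best promoter regions of replicates 1 and 2 ranked 3521 and 5095 and that of replicate 3 ranked 21200.

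The glycosyltransferase gene fng (FBgn0011591, 3L:20925891-20949512, minus strand), whose product adds sugars to Notch and alters its response to each ligand, had no optimal peak but lay close below the limit. Its strongest relaxed region, in the flank, ranked 5729 in the pool and 6062, 9319 and 5181 in the replicates. The promoter region, 136 bp upstream of the TSS, ranked 6646 in the pool and 7938, 15423 and 4324 in the replicates, so replicate 3 alone would have put fng among the genes with a promoter peak.

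Mastermind had the most peaks of the 10 genes. The gene mam (FBgn0002643, 2R:13991203-14060356, plus strand) spans 69.2 kb with 3 annotated TSSs, and 9 of its 11 peaks were intronic. The strongest, at 2R:14008309-14008672, ranked 143 in the pool and 88, 250 and 227 in the replicates, the highest ranks of any peak assigned to the 10 genes in each list. Its summit lay 706 bp upstream of the second TSS of mam, outside the promoter window, with the nearest start of another protein-coding gene 17786 bp away. The replicate summits lay 0, 6 and 6 bp from the pooled one.

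A pair of further strong peaks lay in the longest intron of mam, of 20481 bp. They were at 2R:14024976-14025338 (rank 629; 720, 505 and 733 in the replicates) and at 2R:14024475-14024589 (rank 1033; 1293, 908 and 860), with summits 6475 and 7176 bp upstream of the third TSS. The nearest start of another protein-coding gene, CG18371, was closer, at 3432 and 4133 bp. The other 6 intronic peaks ranked between 3357 and 4803, and of these 2 were supported by 3 replicates and 4 by 2. Over the 3 strongest, the replicates differed little in rank, while among the weaker ones 1 peak at 2R:14006718-14007147 ranked 2483, 15872 and 4064 in the replicates.

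The promoter peaks of mam were weaker. At the first TSS the summit lay 398 bp upstream and 98 bp from the start of RN-tre, which encodes a GTPase-activating protein for Rab GTPases and is read in the opposite direction, and the peak ranked 2873 in the pool and 4858, 2288 and 2019 in the replicates. At the third TSS the peak, with its summit 27 bp downstream, ranked 5121, and only replicate 3 supported it. With 11 assigned peaks mam was 1 of 12 genes among all 13945 that had as many or more, and 1 of 5 among the 178 genes at least as long, whose median was 2.

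The other nuclear genes were short and differed. Su(H) (FBgn0004837, 2L:15039488-15043334, plus strand), the gene of the DNA-binding protein of the pathway, carried 1 promoter peak at 2L:15039206-15039635 with its summit 67 bp upstream. It ranked 3861 in the pool and 4376, 3069 and 4822 in the replicates, all within the 5202 strongest, and no other protein-coding TSS lay within 500 bp of the summit. The next start, that of CIAPIN1, was 560 bp away. The gene H (FBgn0001169, 3R:20621938-20628915, plus strand), which encodes the co-repressor adaptor Hairless, had no optimal peak and only 3 relaxed regions, of which the strongest ranked 15591. The best region assigned to H in each replicate ranked 6033, 10613 and 12596, so none was among the 5202 strongest.

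**Figure D3:**
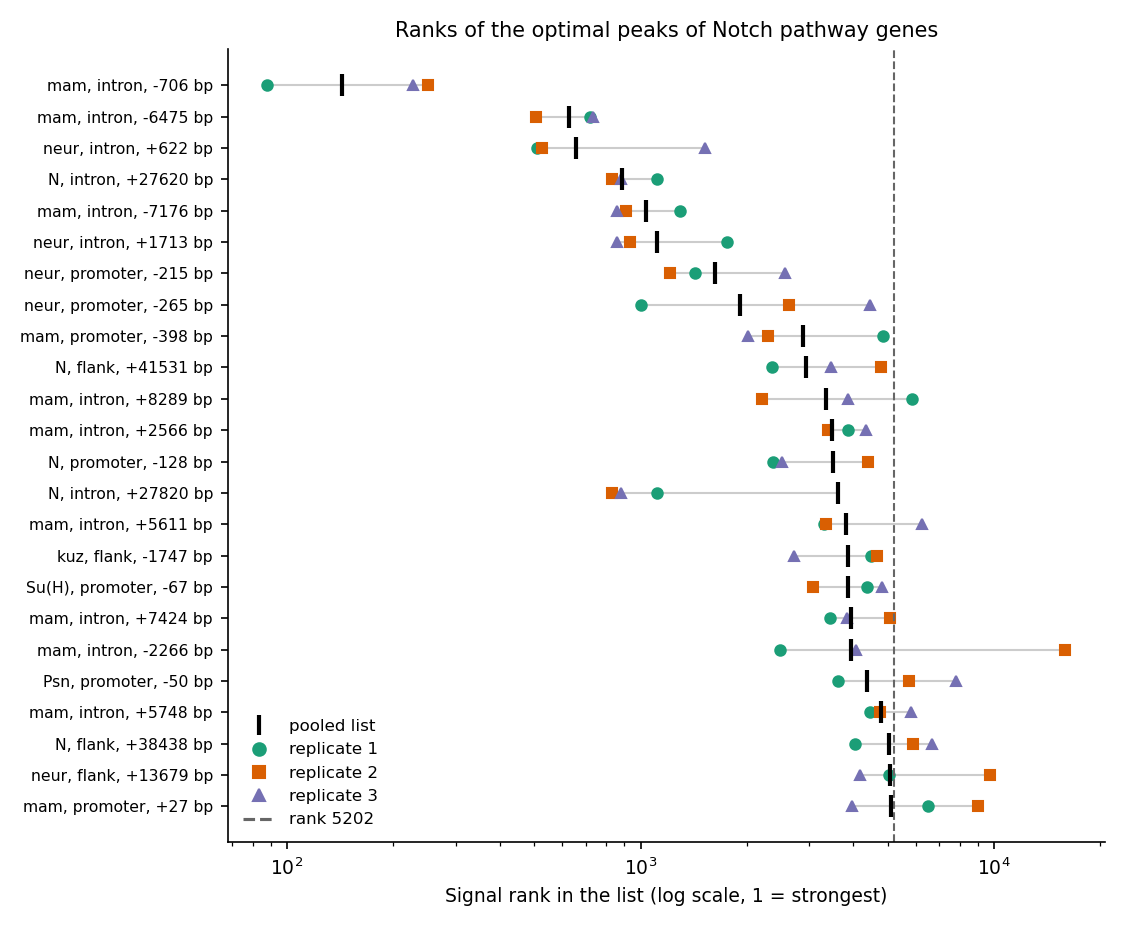
Signal rank on a log axis of each of the 24 optimal peaks assigned to Notch pathway genes, with 1 row for each peak named by gene, place and distance from the nearest TSS of that gene (negative is upstream). Black strokes are ranks in the pooled list and coloured symbols the best overlapping region in each replicate; the 8 peaks at the top were within rank 5202 in every replicate, and the spread is widest among the weaker peaks.

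Of the 24 peaks, 16 (66.7%) were supported by all 3 replicates, 5 by 2 and 3 by 1, against 73.2% of all optimal peaks supported by 3. The 16 became 14 when a replicate summit within 100 bp was required, and also with an overlap of 50% of the peak. Replicates supported 20.3 ± 1.53 of the 24 (SD, n = 3). The 3 supported by a single replicate were those of Psn, of mam at the third TSS and of CG18508 beside N. The median pooled rank of the 24 was 3499.5, against 2601.5 for the whole optimal set, and 8 lay in its strongest 50%: 4 of neur, 3 of mam and 1 of N.

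The starts of other genes lay near several of these summits. Of the 24 peaks, 7 had a TSS of another protein-coding gene within 500 bp: both outer peaks of neur (hyx), its distal peak (tgo), the first promoter peak of mam (RN-tre), that of Psn (Las), and the flank peaks of N (dnc and CG18508). The matching share of all optimal peaks was not counted, so 7 of 24 is a description only. Without these 7 peaks, a comparison chosen after seeing the data, N, neur, Su(H) and mam kept a promoter peak. That is 4 of the 10 genes, against 11.1% of all protein-coding genes with a promoter summit near no other gene's start.

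**Figure D4:**
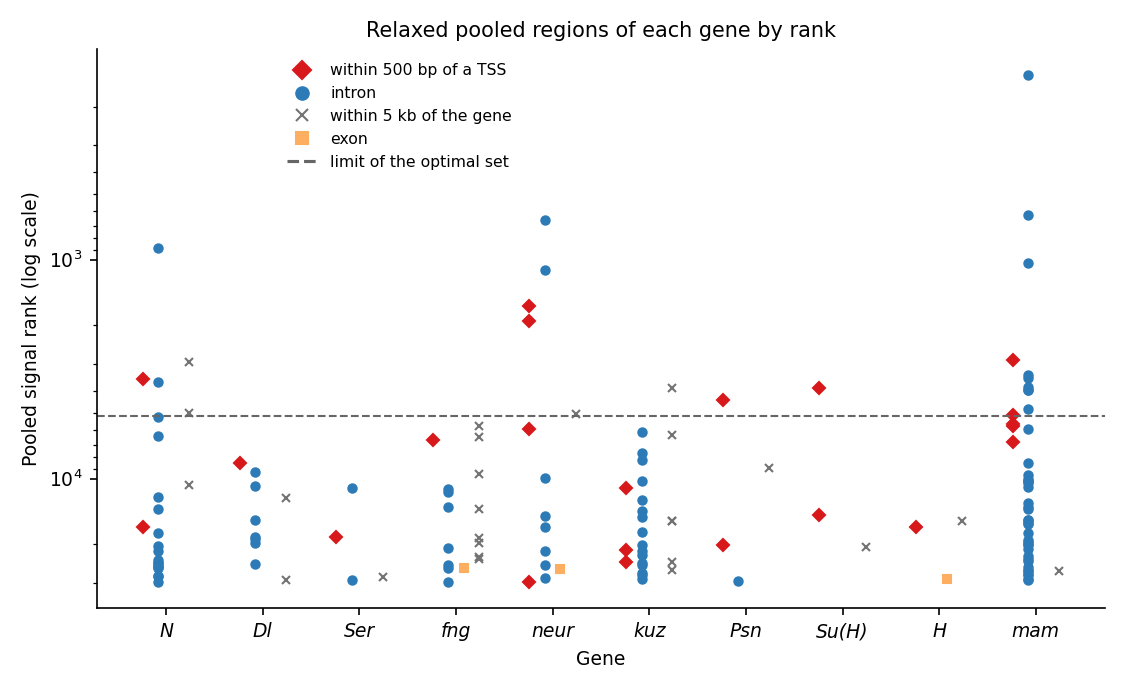
Pooled signal rank on a log axis, strongest at the top, of every relaxed region assigned to each of the 10 genes, with symbols for its place and a dashed line at rank 5202, the limit of the optimal set. Regions of mam, neur and N reach well above the line, kuz, Psn and Su(H) have 1 region each above it, and all regions of Dl, Ser, fng and H lie below it.

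Below the optimal set the relaxed list adds 125 regions, for 149 in all: 99 in introns, 25 in flanks, 22 at promoters and 3 in exons. They range from 46 at mam, 25 at kuz and 23 at N to 4 at Ser and Psn and 3 at Su(H) and H. A relaxed region stood at a promoter of each of the 10 genes, against 54.2% of all protein-coding genes. This list holds background, and the best promoter regions of kuz, H and Ser ranked only 11047, 16712 and 18420. The number of TSSs per gene was not taken into account. Near the limit of rank 5202, the weakest members of the optimal set were 5034 (N, at CG18508), 5078 (neur, at tgo) and 5121 (mam). The first outside it were 5230, in an intron of N, and 5613, at the first promoter of mam.

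Other Notch pathway genes were taken from a wider list of 36 genes, chosen with earlier results of these data known. Promoter peaks stood at 17 of them (47.2%, against the 26.2% of all genes). Because of how the list was chosen, this share is a description only. With the strongest 50% of the optimal peaks, 9 of the 36 had a promoter peak, against 15.4% of all genes. Among partners of Psn in gamma-secretase, 2 of 3 had one: aph-1 (rank 847, shared with the start of Snx21) and pen-2 (rank 4708, shared with Ote). Both genes of this list for enzymes that glycosylate Notch had one, rumi (rank 649) and O-fut1 (rank 3903), each near the start of another gene. The core gene fng, also for such an enzyme, had none. Of the other ADAM protease genes, Kul had one (rank 4592) and Tace none. Of 3 genes for ligand ubiquitination and endocytosis, 1 had one, aux (rank 3810).

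Within the wider list, the strongest promoter peaks were at genes classed as regulators of receptor trafficking or as nuclear cofactors. As the list was chosen with earlier results of these data known, these ranks and class counts are a description only. Of all protein-coding genes 26.2% had a promoter peak. Of 6 trafficking and turnover genes 4 had one: lgd (listed as l(2)gd1, rank 119; 146, 124 and 104 in the replicates; shared with the start of Reps), numb, whose product inhibits Notch in 1 daughter of an asymmetric division (rank 339; 375, 406 and 233), Su(dx) (rank 2789, shared with lectin-22C) and Nedd4 (rank 3287). Of 7 genes classed here as nuclear cofactors 4 had one. The strongest was nej, the fly CBP gene (rank 24, with 21, 29 and 41 in the replicates). Next were gro, the gene of the co-repressor Groucho (rank 37, with 34, 44 and 62), and skd, a Mediator subunit gene (rank 106, with 66, 200 and 178). The last was ago (rank 4108, shared with CG1265). The best promoter rank among the 10 core genes was 1628, at neur. This depends on the 500 bp window, since stronger peaks of mam (rank 143) and neur (rank 658) lay just outside it. Their summits were 706 and 622 bp from a TSS of their gene.

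Target genes had promoter peaks at about the share of all genes. Of 13 genes of the E(spl) complex and the Bearded family, the classical targets of Notch, 3 had one (23.1%, against 26.2%): E(spl)m3-HLH (rank 537; 515, 468 and 601 in the replicates), E(spl)mdelta-HLH (rank 2553, shared with CG43116) and E(spl)m7-HLH (rank 2957). In all, 10 of the 13 had an optimal summit within 5 kb, against 54.3% of all genes. They are short neighbouring genes, so 1 peak is counted for several of them, and the peak of gro is also counted for E(spl)m7-HLH and E(spl)m8-HLH.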

How the data were processed

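ChIP-seq peak lists of 3 biological replicates of CG12155-GFP embryos were used: 5 deposited lists on dm6, namely the optimal set, the pooled relaxed list and 1 relaxed list for each replicate. Per the deposited notes, the optimal set passed the irreproducible discovery rate (IDR) and the relaxed lists were its input. The signal of each region is set by the authors' peak caller (caller, aligner and settings: not given in the sources used here). The 5 lists on dm3 were not used here. Signals were ranked within each list. The annotation was Ensembl release 115 and the sequence RefSeq's Release 6, with Python 3.11.15, pandas 2.3.3 and numpy 2.4.6. Summits are the start plus the offset column. Summits were placed in the order promoter, exon, intron, flank. Placement was tested on simulated data: all 21117 summits planted at 2000 genes were recovered. All 10 genes are named, with the 4 strongest promoter peaks of each class of the wider list. The genes, lists and rules were chosen with earlier results of these data known. Sequences under the other summits are not reported here. Peaks and genes are not replicates, and no test was made. Alternatives were other windows and flanks, stricter peak sets, other overlaps, 1 TSS per gene, each replicate left out, and replicate ranks.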

Additional observations from a re-analysis of the deposited data

How the results depend on the processing

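Of 53 alternative values, 41 stayed close to the reported value (a count within 1.5 times, a median rank within 1 SD of the replicates). With the strongest 50% of the optimal peaks, the genes with a promoter peak numbered 1 in place of 5, against 2146 of all genes (15.4%) in place of 3647. Of the wider list 9 had one in place of 17. Genes with any peak numbered 3 in place of 6, against 5175 of all genes (37.1%) in place of 7577. The assigned peaks were 8 in place of 24, all 8 supported by 3 replicates. A promoter window of 200 bp left 11 genes of the wider list and 4 of the 10, without neur, against 2728 of all 13945 genes. Leaving out peaks near another gene's start left 1543 of all genes. The median over the 10 genes of the rank of the strongest summit was 4114 in the pool and 4906.5 by the mean of the replicates' ranks, with H over the 2 replicates that have a region there (4629, 5110.2 and 5360.5 with a replicate left out). With peaks supported by both other replicates as each replicate was left out, the genes with a promoter peak numbered 4, those with any peak 5, and the peaks 17 to 18. Psn was lost each time. Of all 13945 genes, 2956, 3045 and 3012 kept a promoter peak without replicates 1, 2 and 3, in place of 3647. The optimal set itself was kept, since it was called on all replicates. Depth is unknown, so no difference in rank could be weighed by it.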
